A study of Drosophila melanogaster with 13 samples.

Results

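Genes for 56 transcription factors of neuronal and general development were examined for CREB/CRTC-binding sites in the mushroom bodies (MBs) of Drosophila melanogaster, the brain structures that hold olfactory memory. They were picked by name. A site belonged to a gene when the authors' deposited table of CREB/CRTC-binding sites gave it that gene symbol, whatever its distance from the gene. By this rule, 42 of the 56 genes had at least 1 site, and they had 123 of the 4995 sites in the table. A CREB/CRTC-binding site is here called a region. It is a CRTC-binding site with a CREB-binding site at most 200 bp away.

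Chromatin was immunoprecipitated from MB nuclei with antibodies to CREB or CRTC, and the study has 12 such libraries in 4 groups, with 3 libraries of each protein from naive flies and 3 from flies 1 day after spaced training, in which an odour is paired with electric shocks in sessions separated by rests. Input DNA was sequenced in 1 further library, made from naive flies. The strain is labelled CS10. The methods give w(CS10) as the control line to which fly lines were outcrossed, and the flies of all groups carried FLAG-KASH under the MBp-LexA driver. Their age was not given in the sources used here. KASH is a domain that sits in the nuclear membrane, and its FLAG tag was used to pull down the nuclei. MBp-LexA is less active in α'/β' Kenyon cells than in those of the other lobes, which limits what the nuclei represent, and flies of both sexes were used. The methods call the numbered libraries biological replicates. The deposited lists combine the replicates and give 1 score and 1 false discovery rate per site, so no spread between libraries can be given for any value below, and the depth behind a site is unknown. The study presents the lists with its account of flies after spaced training, and its methods do not name the group of libraries in which the peaks were called. The table also holds fold changes and adjusted p-values of the authors' own comparison of spaced-trained with naive flies. They are not used here, and binding in naive and trained flies was therefore not compared.

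CREB is a transcription factor that binds DNA at cAMP response elements, and CRTC is a coactivator that moves into the nucleus when it loses its phosphate groups and joins CREB there. Several of the genes examined are known as regulators of the Kenyon cells, the intrinsic neurons of the MBs. The Pax6 genes ey and toy and the nuclear factor gene dac are needed to build the MBs, and chinmo and mamo set the temporal fate of Kenyon cells. Others are best known from the embryo, the eye or the limbs. Binding sites do not measure expression, and no marker of the cell type could be checked from them.

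The study measured CRTC binding at Bx by ChIP-qPCR with a pair of designed primers on chromosome X, which are shown because they define the fragment measured there. Neither could be placed relative to the regions, as no sequence of dm3 was used here.
Bx F: gccggatagtttcctcttccttc
Bx R: ctggctggtgggtgatataatg

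The number of genes with a region varied between role groups. All 5 genes of MB and eye determination had at least 1 region (ey, toy, dac, eya and so), and so did all 9 genes of the BTB group (ab, chinmo, br, mamo, lola, ttk, bab1, bab2 and fru). The figures label this group BTB zinc fingers, a name that does not hold for bab1 and bab2. Among the factors of neuronal identity with homeodomain, POU, LIM or CUT domains, 8 of 11 had a region (hth, ct, Lim1, ap, tup, vvl, zfh1 and zfh2). The exceptions were exd, which encodes a homeodomain partner of hth, onecut and acj6. Of the factors of the embryonic temporal series, 4 of 6 had a region (hb, pdm2, nub and grh), but Kr and cas had none. Only 3 of 7 genes of neural differentiation had one (pros, scrt and emc). The others were nerfin-1, the proneural gene ase, its partner gene da, and repo, the homeodomain gene of glia. Of the effectors of TGF-beta and Wnt signalling, only shn and sbb had a region. The Smad genes Mad and Med and the TCF gene pan had none. In the mixed group of Bx, sd and other factors, 11 of 13 genes had a region (Bx, sd, Mef2, jing, kn, danr, tsh, crol, rn, dsx and Mes2) and run and dan did not. Thus 14 of the 56 genes were without a region. All 56 names are current RefSeq symbols, and none of the table's symbols was an older name of one of the 14. A gene without a region can still lie near a region that the table gives to a neighbour. For example, the only region at the paralogs dan and danr is named for danr, and 1 other protein-coding gene lies between them by RefSeq's annotation of Release 6, from which no coordinates were taken. Over the genome, 19.4% of 13951 protein-coding genes in that table had a region. The 56 genes were listed with earlier results of these data known, so that their share, 42 of 56, cannot be read against this background. A list of 77 other transcription factors, among them Hox, segmentation and proneural genes, was also matched by symbol, and 46 of them had a region.

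Regions were numerous at many of these genes. Of the 42 genes, 29 had 2 or more regions (69.0%), whereas 39.3% of all 2833 genes with a region did. The median was 2 regions per gene, compared with 1 over all genes and 1 over the 46 other transcription factors. In all, 8 genes had 5 or more, namely ttk and shn with 9 each, mamo with 7, grh and hth with 6 each, and dsx, lola and zfh2 with 5 each. These are 19.0% of the 42 genes, and 4.41% of all genes had as many. None of the 46 other transcription factors did, and the most there was 4. Both lists of transcription factors were chosen with earlier results of these data known. These shares, and those of distance below, are therefore descriptions and cannot be tested against the background. Gene length was not taken into account, because no annotation of dm3 was used here. Between neighbouring regions of the same gene there were 81 gaps, of which 34 were under 1000 bp, with a median of 1917 bp and a range from 59 to 91538 bp, both at jing.

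**Figure D1:**
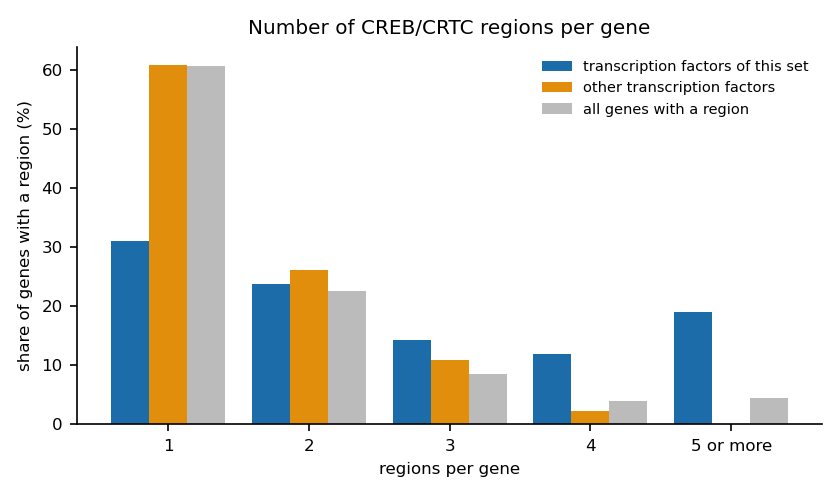
Share of genes (y axis, %) with 1, 2, 3, 4 or at least 5 CREB/CRTC regions (x axis) among the 42 transcription factors with a region, the 46 other transcription factors with a region and all 2833 genes with a region. Genes with a single region make up 31.0% of the 42 transcription factors and 60.7% of all genes.

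The regions of these genes lay farther from transcriptional start sites (TSSs) than regions did in general. The table lists for each region a distance to a TSS of the gene it is named for. The median distance, without its sign, was 692 bp over the 123 regions and 149 bp over all regions. Of the 123 regions, 52 were within 500 bp of a TSS (42.3%, 95% Wilson interval 33.9 to 51.1%), compared with 63.8% of all regions. The interval covers counting error only, and regions of the same gene share a locus. At 6 regions (4.88%, Wilson interval 2.25 to 10.2%) the distance was 0, that is, the region covered the TSS. In the whole table, 21.0% of regions did. The 77 other transcription factors had regions that covered a TSS about as rarely, with 4 of 71 (5.63%), but 62.0% of their regions were within 500 bp. The class from over 1000 bp to 5000 bp held 37 of the 123 regions (30.1%) and 16.1% of all regions. Beyond 5000 bp were 14 of the 123 regions (11.4%), against 8.43% in the whole table. Counted by gene instead, the difference was small, since 35 of 42 genes (83.3%) had their nearest region within 500 bp and 84.4% of all genes did. The regions away from the TSS were thus mostly additional regions of genes that also had one close to it. A gene with more regions has more chances of one within 500 bp, and the shares by gene were not corrected for this. Among genes with 2 or more regions, 42 of 110 regions were within 500 bp, against 1786 of 3276 over all such genes. Among genes with a single region, the counts were 10 of 13 and 1400 of 1719. The 7 genes with no region that close were ab, bab1, br, mamo, pdm2, ct and pros.

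**Figure D2:**
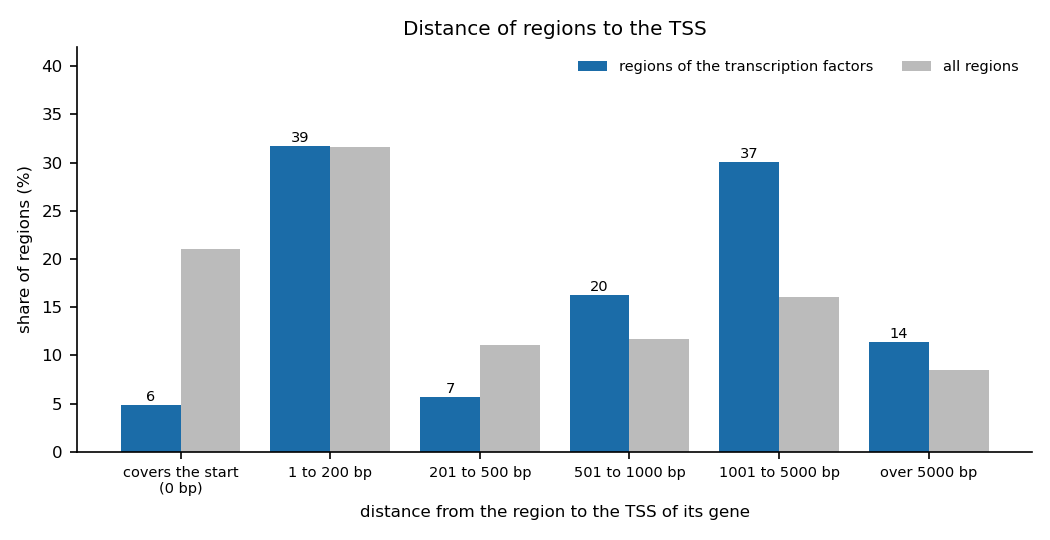
Share of regions (y axis, %) by distance to the TSS listed for the region (x axis, bp, without sign), for the 123 regions of the transcription factors (blue, with their number above each bar) and all 4995 regions (grey). Regions that cover a TSS make up 4.88% of the blue and 21.0% of the grey set, and those from over 1000 bp to 5000 bp make up 30.1% and 16.1%.

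Most of the regions not covering a TSS had a negative distance, which by the usual convention is upstream. The table does not define the sign. There were 78 of 117 such regions with a negative distance (66.7%), compared with 53.0% over all regions. The share was higher still at the other transcription factors, with 53 of 67 (79.1%), so that a high share is not particular to these genes. The sign was negative at 9 of 11 regions of the temporal series and at 18 of 24 regions of the homeodomain, POU, LIM and CUT factors. It was negative at 15 and positive at 14 of the 31 regions in the group of Bx and others.

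The scores of the authors' peak caller were close to those of the rest of the table. A score compares the ChIP with input DNA and has no unit. It ranks sites within the list of 1 protein, and values of CREB and CRTC cannot be compared with each other. The median CRTC score was 5.11 over the 123 regions (quartiles 3.57 and 8.66) and 4.66 over all regions. The median score of the nearest CREB-binding site was 4.71 (quartiles 3.18 and 8.78) and 4.62 over all regions. Scores in the top 10% of all regions, which hold 9.99% of them, were seen at 13 of the 123 regions for CRTC (10.6%) and at 13 for CREB. The highest CRTC score at these genes was 19.3 and the lowest 1.66, whereas the table reaches 123. The false discovery rate was at most 0.00918 for the CRTC-binding sites and 0.00912 for the CREB-binding sites. The regions were 12 to 186 bp wide, with a median of 113 bp.

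**Figure D3:**
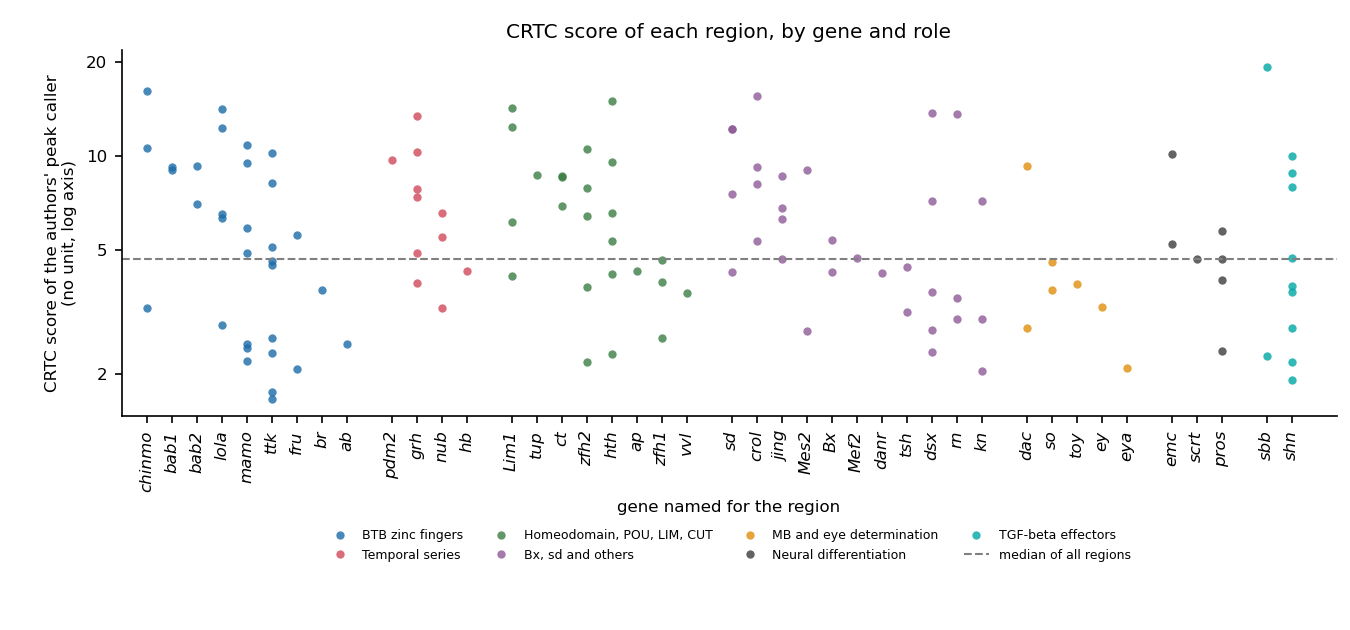
CRTC score (y axis, no unit, log axis) of each of the 123 regions, with genes on the x axis ordered by role group and by their median. Each point is a region, and the dashed line marks the median of all 4995 regions, 4.66. At genes with many regions, such as ttk and shn, the points lie on both sides of that line, from 1.66 to 10.3 and from 1.91 to 10.02.

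CREB and CRTC scores ran in parallel over the regions. The CREB-binding site shared at least 1 bp with the CRTC-binding site at 112 of the 123 regions (91.1%, and 90.7% of all regions), and the centres of the sites were a median of 23 bp apart. Over the 123 regions, Pearson's r of the log scores was 0.885 and Spearman's rho of the scores was 0.882. Over all regions they were 0.840 and 0.816. Only sites called for both proteins enter, and at mamo, grh and shn neighbouring regions share the same nearest CREB-binding site. The correlations are descriptions across sites. Both proteins were profiled in MB nuclei, with 1 input library in the study, and sites of the same gene share a locus. In 23 of the 29 genes with several regions, the region with the highest CRTC score also had the highest CREB score (79.3%). Over all genes with 2 or more regions the share was 77.7%. The 6 exceptions were ct, jing, nub, shn, tsh and zfh1.

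**Figure D4:**
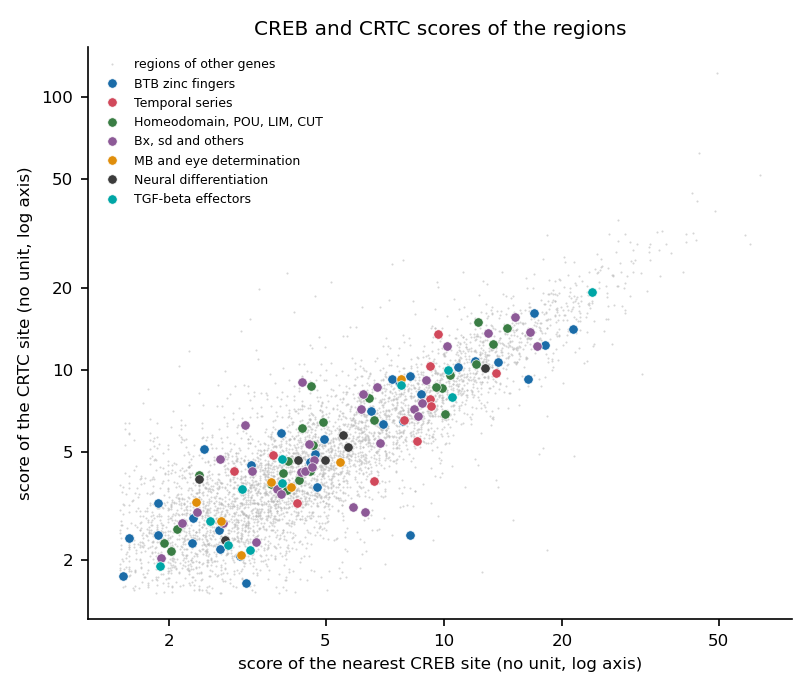
CRTC score (y axis) against the score of the nearest CREB-binding site (x axis), both without a unit and on log axes, for the regions of the transcription factors (coloured by role group) and of other genes (grey). The coloured points lie within the grey cloud, with Spearman's rho of 0.882 over the 123 regions.

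The region with the highest CRTC score was often not the one nearest to a TSS. This was the nearest region in 10 of the 29 genes with several regions (34.5%) and in 43.4% of all such genes. Genes with more regions have more chances for another region to be higher, and the share was not corrected for this. The distances also give a lowest number of TSSs involved, because regions measured from the same TSS give the same position for it. The strand of each gene was not used, and the lower of the counts for the plus and minus strand was taken. Allowing a difference of 2 bp, the regions of 20 of the 29 genes referred to more than 1 TSS (69.0%), compared with 39.9% of all genes with several regions. At the other transcription factors it was 5 of 18 such genes (27.8%). More regions can refer to more TSSs, and these shares were not corrected for the number of regions. The 4 regions of sd and the 4 of pros each referred to 4 TSSs, and the 9 of shn to at least 4. In contrast, all 5 regions of zfh2 were measured from the same TSS.

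The genes of MB and eye determination had 7 regions, too few to set them apart from the rest of the table. The median CRTC score was 3.73, with a range from 2.09 to 9.28, and 1 of the 7 scores was above the median of all regions, 4.66. With so few regions, the 95% interval of the median from binomial order statistics is this whole range. It therefore can neither set the group apart nor show that it is alike. The median CREB score was 3.63, and 2 of the 7 were above the median of all regions. Of the 7 regions, 6 were within 500 bp of a TSS (Wilson interval 48.7 to 97.4%), an interval that holds the 63.8% of all regions. The median of 1 region per gene was that of all genes. The single regions of ey and toy, both on chromosome 4, were 97 bp and 77 bp from a TSS, with CRTC scores of 3.28 and 3.89. For eya, which encodes a phosphatase and coactivator that binds the homeodomain protein of so, the region was 68 bp from a TSS and had a CRTC score of 2.09, above 5.99% of all regions. At so the CRTC scores were 3.73 and 4.58. The highest score in this group was at dac, where a region 390 bp from a TSS had a CRTC score of 9.28 and a CREB score of 7.80, whereas the other, 2 bp from a TSS, had 2.80 and 2.72.

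The BTB group had the most regions of any role group, 32 against 31 in the group of Bx and others. This lead rests on counting bab1 and bab2, which had 2 regions each. The 32 regions had CRTC scores from 1.66 to 16.2, with a median of 5.35. Only 9 of them were within 500 bp of a TSS (28.1%). The highest score in this group was at chinmo, on chromosome 2L at 1649898 to 1650046 of dm3. It was 16.2 for CRTC, above 96.2% of all regions, and 16.9 for CREB. This region lies 1211 bp from the TSS. A region 59 bp from the same TSS had a CRTC score of 10.7 and a CREB score of 13.7, and a distant one, 6677 bp away, had 3.25 and 1.88. For mamo, all 7 regions were at least 800 bp from a TSS, and they were spread over 100460 bp of chromosome X. The highest mamo score, 10.8 for CRTC and 12.0 for CREB, was at the region 800 bp away (13880687 to 13880799), and the regions at 42718 bp and 39364 bp, with CRTC scores of 2.43 and 5.87, were the farthest from a TSS among the 123. The mamo region at 13830256 to 13830268 is also the narrowest of the 123, with 12 bp. Its CRTC score was 2.49, and the CREB-binding site taken for it, with a score of 8.19, is 132 bp away and is also the one taken for the neighbouring mamo region.

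At lola, which encodes many isoforms of an axon guidance regulator, 2 of the 5 regions covered a TSS. They had the highest scores there, 14.2 and 12.3 for CRTC and 21.3 and 18.1 for CREB. On chromosome 2R they lie at 6422512 to 6422676 and at 6429136 to 6429245. The CREB scores of both are in the top 5 of the 123 regions. The other lola regions, 629 to 1588 bp from a TSS, had CRTC scores of 6.51, 6.32 and 2.87. At ttk, which encodes a repressor of neuronal fate, 4 of the 9 regions lay within 200 bp of a TSS, between 27550464 and 27551818 on chromosome 3R. Their CRTC scores were 10.3, 8.17, 4.46 and 4.61. The remaining ttk regions were 1042 to 3444 bp away and had scores of 1.66 to 5.11, of which 1.66 and 1.75 were the lowest of the 123 regions. The neighbouring paralogs bab1 and bab2 each had 2 regions, with CRTC scores from 7.04 to 9.26, and a bab2 region, at 1177267 to 1177372 on chromosome 3L, covered the TSS (CRTC score 9.26, CREB score 7.39). The single regions of ab, which was 9507 bp from a TSS, and br had CRTC scores of 2.49 and 3.73, and the regions of fru, a regulator of sexual behaviour, had 5.59 and 2.07.

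**Figure D5:**
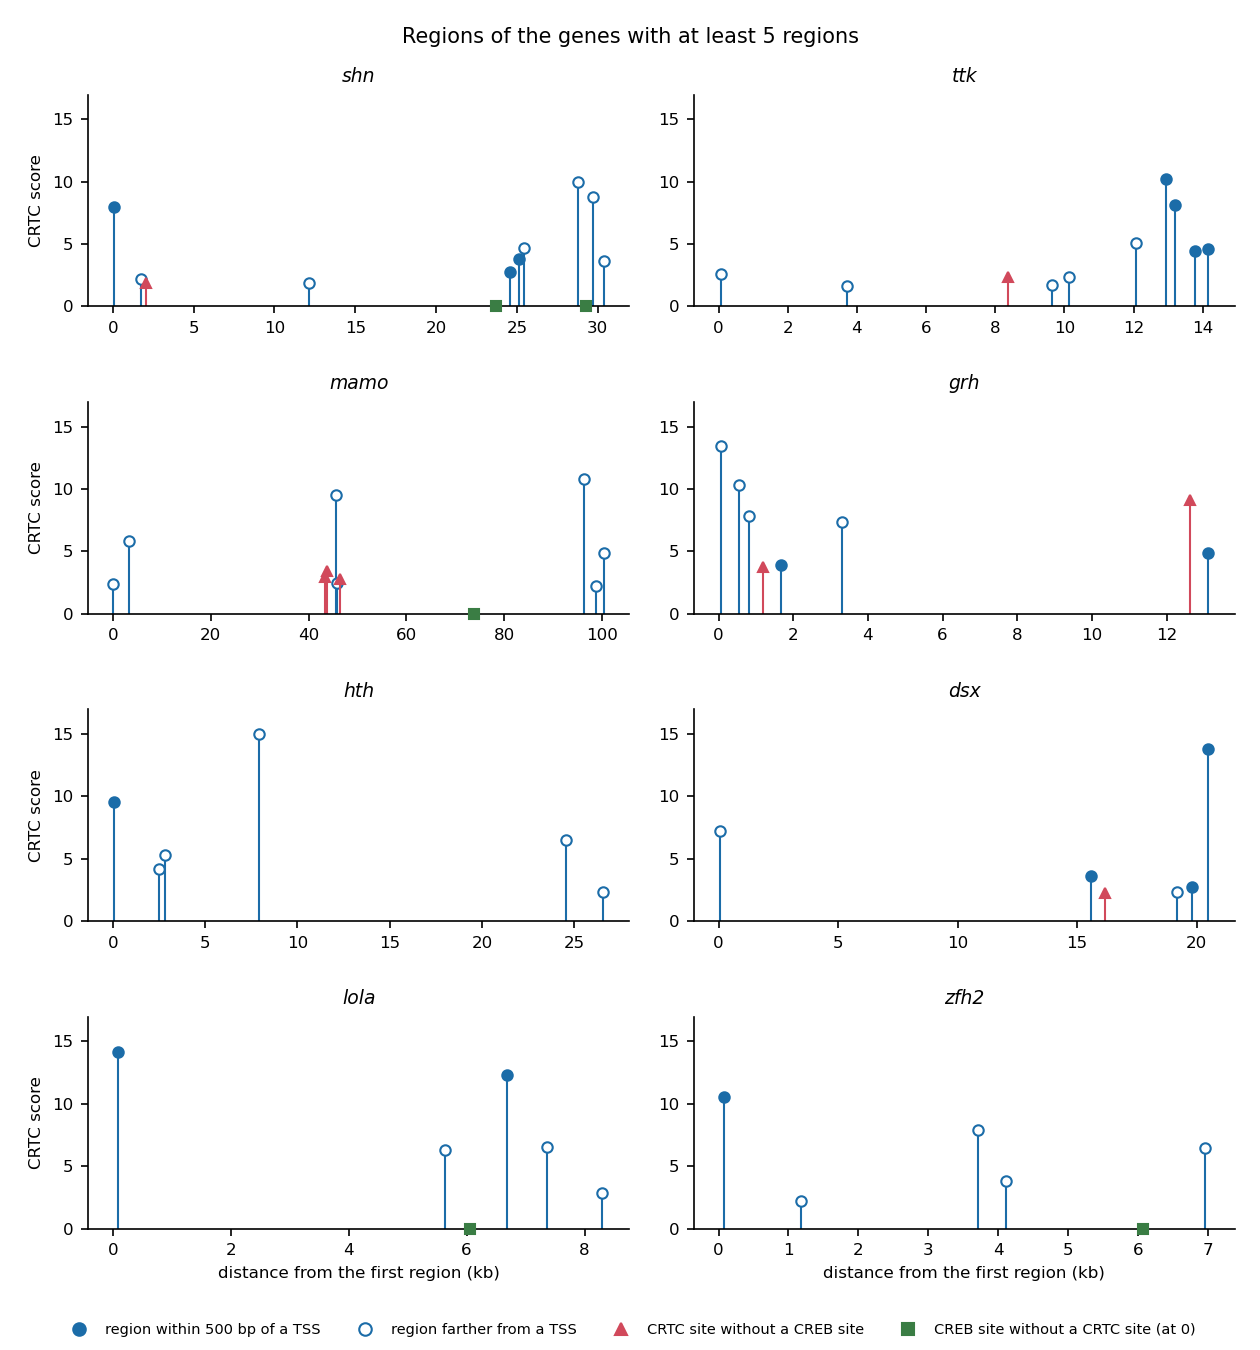
CRTC score (y axis, no unit) of the regions of the 8 genes with at least 5 regions, by distance in kb from the region with the lowest coordinate (x axis, a scale of its own in each panel). Filled circles are regions within 500 bp of a TSS, open circles are farther away, triangles are unpaired CRTC-binding sites (the nearest CREB-binding site is over 200 bp away), and squares at 0 mark unpaired CREB-binding sites, which have no CRTC score. At ttk, the highest scores (10.3 and 8.17) are near a TSS, whereas at hth the highest, 14.99, is not.

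The homeodomain, POU, LIM and CUT factors had 24 regions, with a median CRTC score of 6.28, and 7 of these were within 500 bp of a TSS. At hth, whose product works with that of exd, the highest of 6 scores was 7959 bp from a TSS, on chromosome 3R at 6447957 to 6448111 (14.99 for CRTC and 12.2 for CREB). The hth region 109 bp from a TSS had a CRTC score of 9.54, and the lowest score was 2.32. The LIM-homeodomain gene Lim1 had 4 regions. Their CRTC scores were 14.3 at 845 bp from a TSS (8700682 to 8700790, chromosome X), 12.4 at 27375 bp, 6.13 at 553 bp and 4.11 at 77 bp. The CREB scores at these Lim1 regions were 14.4, 13.3, 4.36 and 2.38. At zfh2, on chromosome 4, the region 46 bp from the TSS, at 522246 to 522389, scored highest (10.5 for CRTC, 12.1 for CREB), and the regions 927 to 6694 bp away had CRTC scores of 2.17, 7.90, 3.81 and 6.44. The 3 regions of ct, a regulator of dendrite shape, were all 822 to 5058 bp from a TSS, with similar CRTC scores of 6.89 to 8.62. In contrast, the 3 regions of zfh1 had CRTC scores of 2.61 to 4.64, all below the median of the table. The single regions of ap, tup and vvl were 68, 102 and 135 bp from a TSS, with CRTC scores of 4.27, 8.70 and 3.64. Together, ey, toy and zfh2 accounted for 7 of the 18 regions that the table lists on the small chromosome 4.

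Of the temporal factors, grh had the most regions. Scores at grh, on chromosome 2R, were highest 1716 and 1231 bp from a TSS (13.5 and 10.3 for CRTC, 9.64 and 9.23 for CREB) and lowest 135 bp from a TSS (3.91 for CRTC). The highest grh region lies at 13688449 to 13688577. The POU genes nub and pdm2, near each other on chromosome 2L, had 3 regions and 1 region. That of pdm2, 1856 bp from a TSS, had a higher CRTC score (9.70) than any of nub (3.25 to 6.56), and its CREB score was 13.5. At hb the only region was 116 bp from a TSS, with a CRTC score of 4.26.

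Among the genes of neural differentiation, emc, which encodes an inhibitor of proneural proteins, had a region covering the TSS, at 749272 to 749420 on chromosome 3L, with scores of 10.2 for CRTC and 12.7 for CREB, and another 692 bp away with a CRTC score of 5.22. For pros, a homeodomain gene that ends neuroblast divisions, the 4 regions were 690 to 25376 bp from a TSS, and their CRTC scores were 2.37 to 5.75. The region of scrt was 50 bp from a TSS and scored 4.68.

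The effectors of TGF-beta signalling and their partners had 11 regions, at shn and sbb, with a median CRTC score of 3.84. The region of sbb, a corepressor gene, at 14245076 to 14245220 on chromosome 2R and 275 bp from a TSS, had the highest scores of all 123 regions, 19.3 for CRTC and 23.7 for CREB, above 98.1% and 98.4% of all regions. The other sbb region, 2027 bp away, had 2.28 and 2.83. At shn, which encodes a zinc finger protein that acts with Mad and Med, the 9 regions spanned 30415 bp. Scores at shn were 10.02 and 8.80 for CRTC at 2138 and 1190 bp from a TSS (7089838 to 7089995 and 7090757 to 7090943, chromosome 2R), and 7.97 at 37 bp. The CREB scores at these shn regions were 10.2, 7.78 and 10.5. The lowest, 1.91, was 2507 bp from a TSS, and was the lowest of the 123 regions outside ttk.

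Bx encodes an LMO protein, which has LIM domains but no DNA-binding domain of its own. The study followed up this gene and reported it as required for maintaining long-term memory. The 2 Bx regions had CRTC scores near the middle of the table. The one 71 bp from a TSS, at 18428484 to 18428624 on chromosome X, had a CRTC score of 5.38, above 58.2% of all regions, and the one 21081 bp away had 4.25, above 43.96%. For CREB the corresponding shares were 69.4% and 28.5%. Between these regions lay a CRTC-binding site with no CREB-binding site within 200 bp, which is therefore not a region. Its CRTC score was 11.3, above 90.9% of all CRTC-binding sites.

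The gene sd, for the TEAD factor Scalloped, had 4 regions within 239 bp of a TSS. At the sd region 239 bp away, at 15705777 to 15705887 on chromosome X, the CREB score was 17.2, in the top 5 of the 123 regions, and the CRTC score was 12.3. A region covering a TSS had a CREB score of 10.2 and a CRTC score of 12.2. At the other sd regions CRTC scores were 7.58 and 4.25. The zinc finger gene crol had a region with a CRTC score of 15.6 at 2105 bp from a TSS (11806774 to 11806866, chromosome 2L), and its other 3 regions, 27, 49 and 4075 bp away, had 9.22, 5.33 and 8.15. At jing, a region covering the TSS, at 2389493 to 2389607, had a CRTC score of 8.62. It lies 59 bp from a jing region with a CRTC score of 6.27. The others had 4.66 and 6.79, and the 4 regions spanned 108690 bp of chromosome 2R. At dsx, the gene that directs sexual differentiation, the score was 13.8 for CRTC and 16.6 for CREB at 407 bp from a TSS (3793537 to 3793690, chromosome 3R), and the remaining 4 regions had CRTC scores of 2.35 to 7.20. The Kenyon cell factor Mef2 had 1 region, 137 bp from a TSS, with a CRTC score of 4.69 and a CREB score of 2.70. The Mes2 regions had CRTC scores of 9.03 at 140 bp and 2.74 at 2505 bp. At rn the scores were 13.7, 3.50 and 3.00, at kn 7.18, 3.00 and 2.04, at tsh 4.39 and 3.15, and at danr 4.21.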

How the data were processed

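ChIP-seq measured the binding of CREB and of CRTC in MB nuclei. Per the study's methods, the authors filtered MiSeq reads and mapped them to dm3 with CLC Genomics Workbench, and took as peaks the overlap of PICS and ERD calls (Strand NGS) against input DNA that recurred in at least 2 of 3 replicates. The score of each site was computed by the authors, and so was its false discovery rate. The deposited table also holds fold changes and adjusted p-values of spaced-trained against naive flies from DESeq2 in 1 kb windows, and these were not used.

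Regions were taken by gene symbol, and each was given the CRTC score of the same site and the score of the nearest CREB-binding site within 200 bp. Shares have 95% Wilson intervals, which cover counting error only. No test across conditions was run. Python 3.11.15, NumPy 2.4.6, pandas 2.3.3, SciPy 1.17.1 and Matplotlib 3.10.9 were used, and the code was tested on simulated data. Coordinates are those of dm3 in the authors' table. The table has 2833 gene symbols. RefSeq's annotation of Release 6 lists 2303 of these as current names and 520 as older ones, and 10 matched neither.

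The members and lists were chosen with earlier results of these data known. Described with positions or full values by rule were Bx, genes with 5 or more regions, with the 5 highest CRTC or CREB scores, the 3 lowest CRTC scores, a region covering the TSS, or the 3 regions farthest from a TSS. Other genes are named with their values so that each is accounted for. Motifs were not analysed, because no sequence of dm3 was used here.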

Additional observations from a re-analysis of the deposited data

Results flagged for a closer look

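Sites called above input DNA for only 1 of the proteins also lay among the regions of these genes. They are listed because the comparison of paired regions does not use them. Whether they were more or less frequent here than elsewhere was not tested. Between the first and the last region of the 29 genes with several regions, 11 CRTC-binding sites had no CREB-binding site within 200 bp. The same genes had 110 regions, and in the whole list 995 of 5990 CRTC-binding sites were unpaired. The 11 sites lay in 8 genes and had CRTC scores from 1.86 to 11.3, with a median of 2.95, against 2.80 over all 995 such sites. The highest were at Bx, at 18440970 to 18441086 of chromosome X (11.3), and at grh, at 13701031 to 13701103 of chromosome 2R (9.11). Likewise, 10 CREB-binding sites had no CRTC-binding site within 200 bp, and in the whole list 2182 of 7243 were unpaired. These 10 also lay in 8 genes. Their CREB scores were 2.38 to 8.57, with a median of 3.92, against 2.46 over all 2182 such sites. The highest was at zfh2, at 528229 to 528399 of chromosome 4. Between the sbb regions there were 2, with CREB scores of 5.22 and 6.61.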

How the results depend on the processing

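Of 21 alternatives, 11 left the value close to the reported one and 10 moved it. Some of these outcomes were fixed by the setting, so the tally does not measure robustness. Matching RefSeq synonyms could change nothing, since no symbol in the table was a synonym of a member. A wider distance could only raise a share, and a stricter filter could only lower the number of regions. Keeping regions at least 100 bp wide left 81 regions, with medians of 6.56 for CRTC (all regions 6.17) and 6.63 for CREB (6.08). The upper 50% of the CRTC list kept 79 regions, and a false discovery rate of at most 0.001 kept 41, with a CRTC median of 9.70 (all 9.86). Within 1000 bp of a TSS were 58.5% (all 75.5%), and by nearest region per gene 83.3% were within 500 bp (all 84.4%). Taking the highest score of each gene gave medians of 8.66 for CRTC (all genes 5.18) and 7.60 for CREB (all genes 5.15). Genes with more regions have more chances of a high score and of a region near a TSS. Without shn and ttk, an alternative chosen after seeing the data, 42.9% were within 500 bp and the medians were 5.38 and 4.97. The motif alternatives were not run, since no sequence was used here. No paired analysis was possible because the lists hold no values per library, and for the same reason no replicate could be left out. The depth behind each site is unknown.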

Other observations

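In the stretches between regions of the same gene, 3 regions carry the name of another gene and are not among the 123. One of CG15233 lies between jing regions (CRTC score 4.82), one of snoRNA:lola-a between lola regions (2.95) and one of KP78a between pros regions (7.18). The last is higher than any score listed for pros itself, of which the highest was 5.75.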
